A study of Homo sapiens with 12 samples.

Results

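Immediate-early genes are the genes that cells transcribe within minutes of a growth factor signal, without new protein synthesis. The 10 genes described here were JUNB, JUN, FOS and ATF3 of the AP-1 family, the transcription factors EGR1 and MYC, the phosphatase gene DUSP1, the mRNA decay factor gene ZFP36, and IER2 and IER3. They were taken from 19962 protein-coding genes on chromosomes 1 to 22 and X. The genes were selected on earlier results of these data, in which the summits at them were already known, so that the presence, number and position of summits at the genes are given as a description and were not tested. All summits of the EGFR chimera inside the GENCODE 44 limits of each gene, extended by 1000 bp on each side, were collected. This gave 25 of the 2186 summits in the data, and they fell in 4 of the 10 genes.

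The cells were B2B1, 1 clone derived from MCF10A-5E, an immortalized line of human breast epithelium. The clone carries a chimera of the intracellular part of human EGFR with a GluGlu tag and a chimera of rat Erbb2 with an HA tag, both with the extracellular part of NGFR, and the dimerizer AP21967 (AP) joins them into heterodimers. All cultures were grown as overlay cultures in 2% matrigel with 5 ng/ml EGF and harvested on day 7. The plus AP cultures received 0.5 µM AP for the last 24 h, and the minus AP cultures received 0.1% ethanol. ChIP-seq of the GluGlu tag was analysed in 2 biological replicates per condition, and the 8 input chromatin and naive IgG libraries of the same 12 were not analysed here.

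ErbB receptors pass growth factor signals through RAS and ERK, and ERK-activated factors then switch on immediate-early genes. Among the products, AP-1, EGR1 and MYC carry the response to later genes, whereas DUSP1 dephosphorylates MAP kinases and ZFP36 brings short-lived mRNAs to decay, so that both limit the response. EGFR itself has been described on chromatin at AT-rich sequences. The comparison here asks where the EGFR chimera was found along these genes without and with the dimerizer AP.

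The 4 lists differed in kind before any gene was considered. Without AP they held 739 and 56 summits, and with AP 1094 and 297, replicate 1 being given first here and throughout. Only 9.34% and 9.23% of the replicate 1 summits lay within 1000 bp of a protein-coding gene, against 76.8% and 79.1% of the replicate 2 summits without and with AP. All 75-bp sequences within 250 bp of the summit occurred once in the genome for 13.0% and 12.3% of the replicate 1 summits and for 96.4% and 99.3% of the replicate 2 summits. The 69, 43, 101 and 235 summits near protein-coding genes, called gene summits here, were therefore used as a second scale for ranks. Of the 25 summits at immediate-early genes, 24 lay in fully unique sequence, and at the other 2.11% of the 75-bp sequences occurred elsewhere. The depth of the libraries is not in the lists, so a gene without a summit had none detectable at that depth. Of 10 breast epithelial marker genes 3 had a summit in any library (KRT5, KRT14 and KRT6A). The others, EPCAM, CDH1, KRT8, KRT17, KRT18, TP63 and ITGB4, had none. Of 9 markers of fibroblasts, endothelial, immune and fat cells none had one, where 1.31% of all protein-coding genes did. Summits do not measure expression, and these counts do not check the cell type.

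Sequences at some of the immediate-early genes are shown on the strand of the gene, from GRCh38. The first group compares the 300 bases before the canonical start of 2 genes with summits in all 4 libraries, JUNB and DUSP1, with those of FOS and EGR1, which had none. Capitals mark the CRE half-site TGACGT (in full form TGACGTCA), the CArG box bound by serum response factor, the AP-1 site TGANTCA and the interferon-type GAS site TTCNNNGAA, each searched on both strands. In JUNB, which had none of these, the capital is the base of the minus AP replicate 2 summit.
JUNB chr19:12791186-12791485, plus strand: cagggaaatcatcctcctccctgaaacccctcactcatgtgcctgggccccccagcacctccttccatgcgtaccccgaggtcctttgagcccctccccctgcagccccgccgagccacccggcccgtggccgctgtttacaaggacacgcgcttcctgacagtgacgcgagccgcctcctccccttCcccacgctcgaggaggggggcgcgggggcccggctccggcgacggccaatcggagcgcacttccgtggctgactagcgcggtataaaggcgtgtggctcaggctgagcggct
DUSP1 chr5:172771196-172771495, minus strand: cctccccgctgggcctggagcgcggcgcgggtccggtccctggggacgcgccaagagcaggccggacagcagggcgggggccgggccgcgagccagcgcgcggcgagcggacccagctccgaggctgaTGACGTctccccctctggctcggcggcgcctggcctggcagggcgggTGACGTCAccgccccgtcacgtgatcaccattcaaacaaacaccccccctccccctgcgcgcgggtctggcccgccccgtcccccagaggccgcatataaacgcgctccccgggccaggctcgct
FOS chr14:75278528-75278827, plus strand: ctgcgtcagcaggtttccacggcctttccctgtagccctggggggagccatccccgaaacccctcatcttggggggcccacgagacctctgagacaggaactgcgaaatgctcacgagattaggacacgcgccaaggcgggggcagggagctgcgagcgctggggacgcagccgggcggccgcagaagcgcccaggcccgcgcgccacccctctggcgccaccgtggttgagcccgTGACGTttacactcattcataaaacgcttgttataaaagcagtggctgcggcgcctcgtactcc
EGR1 chr5:138465179-138465478, plus strand: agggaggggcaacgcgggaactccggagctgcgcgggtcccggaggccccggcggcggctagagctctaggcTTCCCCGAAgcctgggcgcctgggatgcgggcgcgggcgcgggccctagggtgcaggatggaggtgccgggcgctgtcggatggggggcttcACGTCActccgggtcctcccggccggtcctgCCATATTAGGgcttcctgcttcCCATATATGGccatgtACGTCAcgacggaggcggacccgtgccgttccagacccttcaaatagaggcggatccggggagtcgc

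The second group shows summits inside genes, with the base of each summit in capitals. The JUNB stretch is coding sequence and holds the summits that both plus AP lists, and neither minus AP list, had in the middle of the gene. The DUSP1 windows are the 3 intronic summits, each from a different library, which lay at different places over 599 bp.
JUNB chr19:12792308-12792491, plus strand: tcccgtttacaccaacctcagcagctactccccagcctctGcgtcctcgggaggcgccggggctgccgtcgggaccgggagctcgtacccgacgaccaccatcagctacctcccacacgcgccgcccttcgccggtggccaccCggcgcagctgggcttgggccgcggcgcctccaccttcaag
DUSP1 chr5:172770476-172770556, minus AP replicate 1: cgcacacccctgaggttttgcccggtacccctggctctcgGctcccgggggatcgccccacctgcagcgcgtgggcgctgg
DUSP1 chr5:172769877-172769957, minus AP replicate 2: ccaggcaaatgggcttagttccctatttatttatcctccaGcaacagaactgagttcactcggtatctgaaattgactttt
DUSP1 chr5:172770056-172770136, plus AP replicate 1: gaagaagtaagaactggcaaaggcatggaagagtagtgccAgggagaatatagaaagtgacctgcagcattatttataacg

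JUNB and DUSP1 had summits in every library, MYC in both plus AP libraries, and ZFP36 in one library of each condition. JUN, FOS, ATF3, EGR1, IER2 and IER3 had none. By library, 3 of the 10 genes had a summit in minus AP replicate 1, where 0.175% of all protein-coding genes did, and 2 in minus AP replicate 2, where 0.16% did. In plus AP replicate 1 there were 3, against 0.321% of all genes, and in plus AP replicate 2 there were 4, against 1.13%. In any library, 4 of the 10 genes and 1.31% of all genes had a summit. Since the list was drawn up from the summits, these background shares are given beside the counts and nothing is read from the difference.

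**Figure D1:**
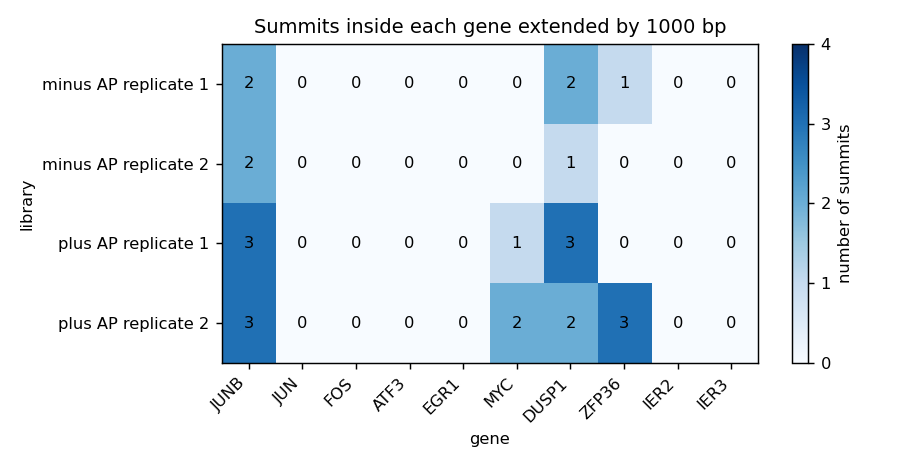
The number of summits inside each gene extended by 1000 bp (columns) in each of the 4 GluGlu libraries (rows), with darker blue for more summits. JUNB and DUSP1 have 1 to 3 summits in every library, MYC has 1 and 2 with AP only, ZFP36 has 1 and 3 in single libraries, and 6 genes have none.

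JUNB encodes a member of the JUN family that pairs with FOS proteins and often restrains JUN. The gene has 1 exon (chromosome 19, 12791486 to 12793315, plus strand). Its summits numbered 2 and 2 without AP and 3 and 3 with AP, so both plus AP lists had more than either minus AP list. The summits fell into 3 stretches when those within 500 bp were joined. The first stretch, at the start, held 1 summit of each library over 398 bp, at 65 and -113 bp from the start without AP and at 285 and 186 bp with AP. In each condition the replicates differed there by 178 bp without AP and 99 bp with AP.

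The last JUNB stretch, around the end of the gene, also held 1 summit of each library, over 619 bp. Without AP its summits lay at 2147 and 1899 bp and with AP at 2092 and 1528 bp, the last of these in the 3' UTR and the others past the end of the gene. The middle stretch held coding-sequence summits at 965 and 862 bp with AP, 103 bp apart, and none in either minus AP list. These were low-scoring summits, of rank 825 of 1094 and 209 of 297. Among gene summits they ranked 72 of 101 and 164 of 235, whereas the minus AP lists held 69 and 43 gene summits in all. Neither was among the 43 highest-scoring gene summits of its list. The part of list length in this difference was not tested. The start summits with AP ranked 282 of 1094 and 29 of 297, and without AP 435 of 739 and 37 of 56. Without AP the end summit outranked the start summit in both replicates, at 231 of 739 and 13 of 56, and with AP the start summit outranked the end summit, which stood at 518 of 1094 and 116 of 297.

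All 10 JUNB summits also lay inside the annotated limits of HOOK2, a gene on the opposite strand whose limits run from 12763003 to 12872740, although its canonical transcript lies wholly outside this region. With each summit given to the nearest protein-coding gene alone, the JUNB summits outside its exon went to HOOK2, and JUNB kept 1, 0, 2 and 3 summits and recurred with AP only. The same counts were found with the gene limits not extended. JUNB is thus counted in all 4 libraries by its extended limits, and in 3 by its own sequence.

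JUN, the namesake of the family, FOS, its usual partner, and ATF3, a stress-induced member that can repress, had no summit in any library. The nearest summits to JUN lay 30.27 and 30.13 Mb away without AP and 14.05 Mb away in both plus AP lists. Those nearest to FOS were 39.88 and 39.87 Mb away without AP and 6.49 Mb away in both lists with AP. ATF3 was nearest to a summit in plus AP replicate 2, at 1.31 Mb, with 3.13 Mb in each of the other libraries. Of the AP-1 genes in the list, JUNB was therefore the one with summits.

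DUSP1 encodes the dual-specificity phosphatase that removes phosphate from ERK, JNK and p38. The gene has 4 exons (chromosome 5, 172768096 to 172771195, minus strand). Its summits numbered 2 and 1 without AP and 3 and 2 with AP, so that the conditions overlapped. A further summit of minus AP replicate 2 lay 1001 bp past the end of the gene, 1 bp outside the limit, and is not counted. The summit farthest past the end that was counted lay at 870 bp, in plus AP replicate 1, and minus AP replicate 1 had one at 473 bp. These 3 downstream summits lay within 528 bp of each other, and plus AP replicate 2 had none there.

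Within DUSP1, 3 libraries had an intronic summit, at 679 bp in intron 1 (minus AP replicate 1), 1278 bp in intron 2 (minus AP replicate 2) and 1099 bp in intron 2 (plus AP replicate 1), as shown above. These 3 spanned 599 bp and formed 1 stretch when summits within 500 bp were joined, as was done for JUNB. Plus AP replicate 2 had none in an intron, and its summits lay at 154 bp in the 5' UTR and 2842 bp in the 3' UTR. The former ranked 11 of 297, above the other summits at immediate-early genes in that list. The 3' UTR summit of plus AP replicate 2 had a counterpart 114 bp away in plus AP replicate 1, where it ranked 749 of 1094, while its own rank was 37 of 297, and neither minus AP list had a summit in the 3' UTR. The best DUSP1 ranks in the other libraries were 256 of 739, 17 of 56 and 386 of 1094. DUSP1 was the member that kept a summit in every library with the limits of genes not extended.

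ZFP36 encodes tristetraprolin, which binds AU-rich elements of mRNAs and starts their decay. The gene has 2 exons (chromosome 19, 39406847 to 39409412, plus strand). Minus AP replicate 1 had 1 summit, 171 bp past the start in intron 1, of rank 591 of 739. Plus AP replicate 2 had 3, at 690 bp in intron 1, 1364 bp in the coding sequence and 2438 bp in the 3' UTR, of ranks 238, 177 and 63 of 297. The other 2 libraries had none, so ZFP36 recurred in neither condition and its nearest summits of the 2 libraries were 519 bp apart. In plus AP replicate 2 the scores were higher farther along the gene, and the 3' UTR summit stood highest.

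**Figure D2:**
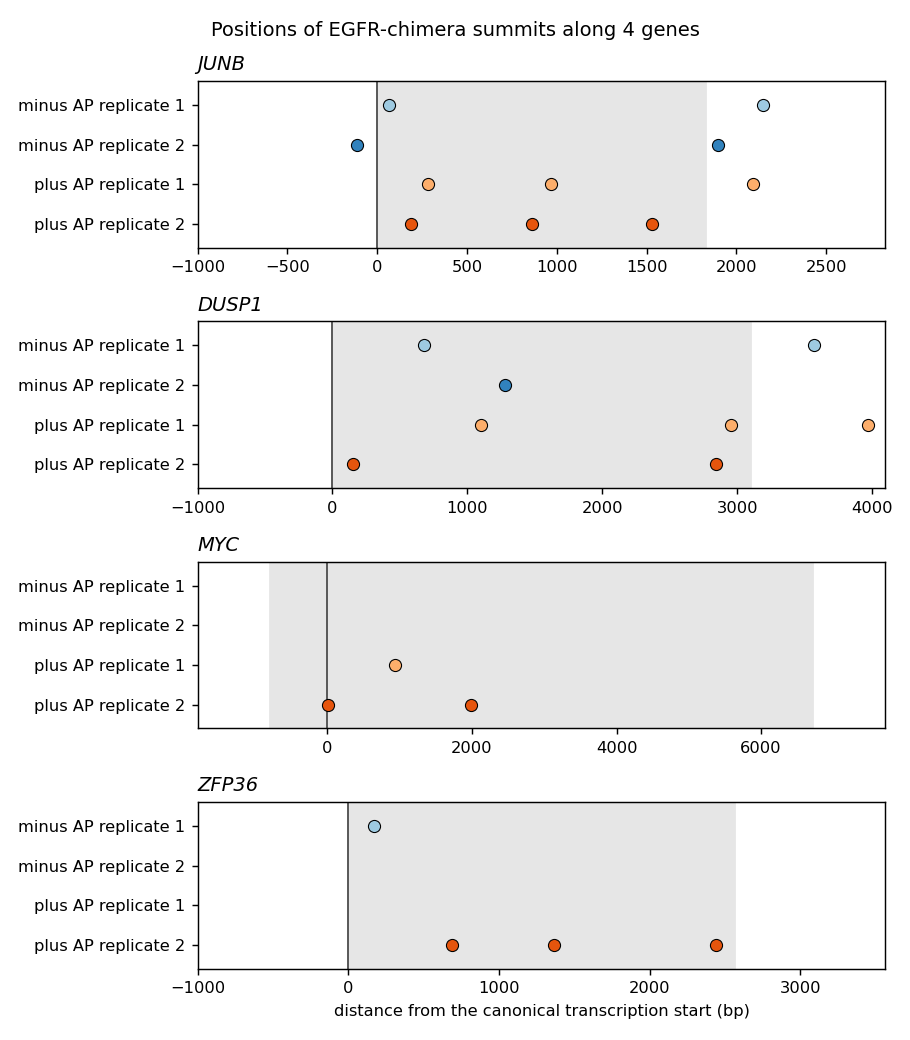
Summits (points) of each library (rows) along JUNB, DUSP1, MYC and ZFP36, with the distance from the canonical transcription start in bp on the x axis, the annotated gene in grey and the start as a vertical line. JUNB has a point of each library near the start and near the end, and points at 862 and 965 bp in the plus AP rows alone.

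EGR1, a zinc-finger factor, IER2, a nuclear protein, and IER3, a short protein linked to survival signals, had no summit either. The nearest summit to IER2 lay 211.6 kb away in plus AP replicate 2 and at 356.8, 357.0 and 356.8 kb in the others. These 3 were the end summits of JUNB, which lies on the same arm of chromosome 19. EGR1 had its nearest summit 2.12 Mb away, in minus AP replicate 1, and 34.3 Mb away in minus AP replicate 2, and IER3 had its nearest at 4.59 Mb, in plus AP replicate 2. Over the 6 genes and 4 libraries the distances ran from 211.6 kb to 42.78 Mb, so no choice of limits near 1000 bp bears on these genes, and with limits of 5000 bp none of them gained a summit.

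**Figure D3:**
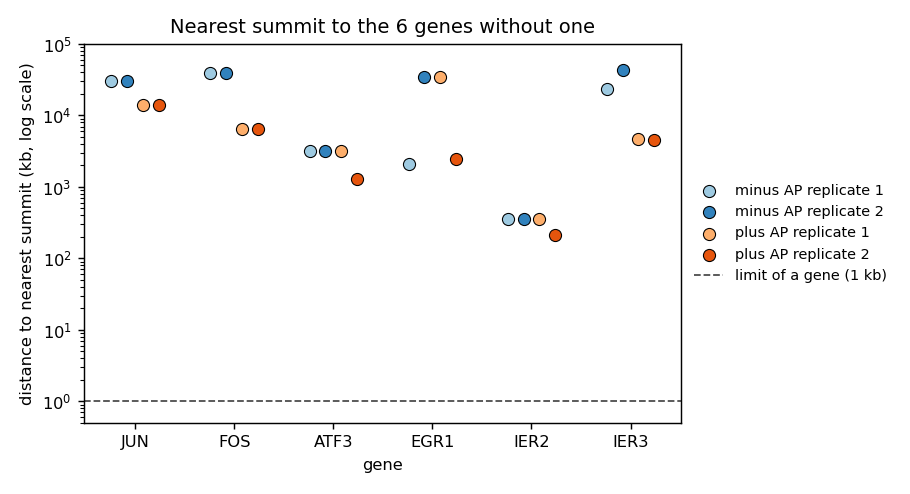
Distance from each of the 6 genes without a summit to the nearest summit of each library, in kb on a log axis, with the 1 kb limit as a dashed line. All 24 points lie at 211.6 kb or more.

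MYC, a transcription factor of growth and metabolism, recurred with AP and not without AP. Its limits on chromosome 8 run from 127735434 to 127742951 on the plus strand, and the canonical transcript starts at 127736231. Plus AP replicate 1 had 1 summit, 929 bp past that start in intron 1, of rank 593 of 1094. Plus AP replicate 2 had 2, one at 3 bp in the 5' UTR of rank 20 of 297 and one at 1991 bp in intron 1 of rank 108. Neither minus AP list had a summit there, and their nearest lay 3.11 Mb away. The nearest summits of the plus AP replicates were 926 bp apart. Only the summit at 3 bp was close to the start, and the one at 1991 bp was farther from it than the plus AP replicate 1 summit.

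Recurrence, meaning a summit in both replicates of a condition, was found for JUNB and DUSP1 without AP (2 of 10 genes, against 0.0902% of all protein-coding genes) and for JUNB, DUSP1 and MYC with AP (3 of 10, against 0.18%). In all 4 libraries there were 2 of 10, against 0.0802%. With summits of the replicates required within 200 bp, DUSP1 did not recur without AP, and MYC did not recur with AP. The nearest counted DUSP1 summits of the minus AP replicates were 599 bp apart. The number of summits was higher in both plus AP lists than in either minus AP list for JUNB and MYC, 2 of 10 genes, against 0.105% of all genes, and lower for none of the 10, against 0.01%. The plus AP lists were also longer, with 1391 summits against 795. With the 43 highest-scoring gene summits of each list, the number in the shortest, JUNB had 2, 2, 2 and 1 summits and MYC 0, 0, 0 and 1, so that neither gene had more in both lists with AP, and MYC did not recur. With the limits not extended, DUSP1 also had more in both. The part of list length in these differences was not tested further.

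As a share of gene summits, the immediate-early genes held 5 of 69 in minus AP replicate 1 (7.25%, 95% Wilson interval 3.13 to 15.9%) and 3 of 43 in minus AP replicate 2 (6.98%, 2.40 to 18.6%). With AP they held 7 of 101 in replicate 1 (6.93%, 3.40 to 13.6%) and 10 of 235 in replicate 2 (4.26%, 2.33 to 7.65%). The intervals cover counting error only and treat summits as independent. The mean without AP was 7.11% ± 0.191 (SD, n = 2). With AP it was 5.59% ± 1.89 (SD, n = 2). The difference, plus AP less minus AP, was -1.52 percentage points, smaller than the SD of the plus AP replicates. It was -2.72 points without replicate 1 and -0.316 points without replicate 2. It is given as a description, since the genes were selected with these summits known.

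Among gene summits of the same list, those at immediate-early genes stood anywhere from the top 2.55% to 78.3%. The medians were 53.6% (n = 5) and 25.6% (n = 3) without AP and 46.5% (n = 7) and 28.9% (n = 10) with AP. In plus AP replicate 2 the 3 best-placed were the DUSP1 5' UTR summit (2.55%), the MYC summit at 3 bp (5.11%) and the JUNB start summit (8.51%), all within 200 bp of a transcription start. In each of the other 3 lists the best-placed was the end summit of JUNB in both minus AP libraries and its start summit in plus AP replicate 1, at 23.2, 18.6 and 18.8%. Scores are values of −log10 q and depend on depth, so that summits were ranked within their own list, and the values of different lists, which differ in length and kind, stand side by side without a test.

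**Figure D4:**
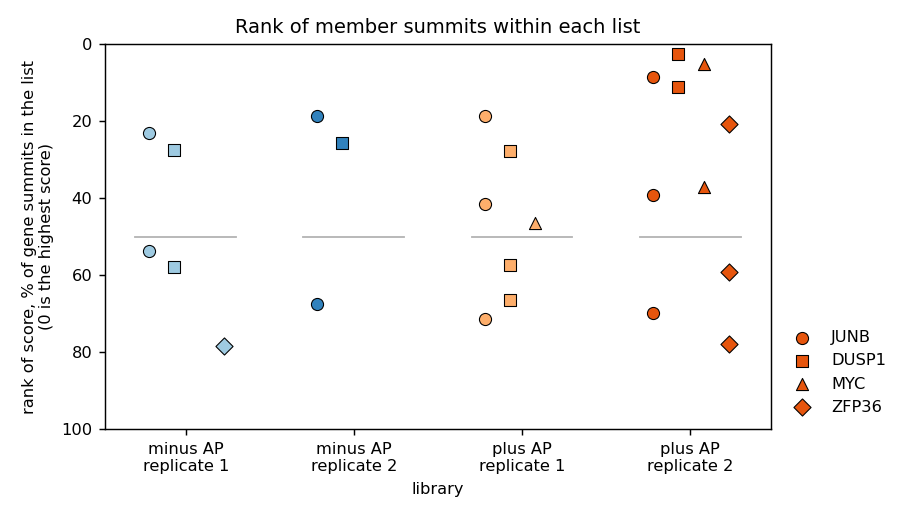
Rank of each immediate-early gene summit among the gene summits of its own list, in percent with the highest score at 0, by library, with a shape for each gene and a grey line at the middle of the list. In plus AP replicate 2 the best-placed points are those of DUSP1, MYC and JUNB, at 2.55, 5.11 and 8.51%.

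The 25 summits lay along the genes and not at the starts alone. By the canonical transcripts 7 were in introns, 5 in the 5' UTR, 3 in coding sequence, 4 in the 3' UTR, 5 past the end and 1 upstream of the start. Of the 25, 12 (48.0%) lay within 1000 bp of the start, and of the 423 other gene summits 199 (47.0%) did. Past the end lay 20.0% of the 25 and 9.22% of the others, and upstream 1 of the 25 and 27.2% of the others. The 25 were placed on the immediate-early gene and the others on the gene with the nearest canonical start. Gene limits can begin more than 1000 bp before the canonical start, so these shares are not strictly alike. The median length of the 10 genes was 3615 bp, against 27476.5 bp for all protein-coding genes, so positions within them span a shorter range. Per kb of extended limits and over all 4 lists, JUNB held 2.61 summits, DUSP1 1.57, ZFP36 0.876 and MYC 0.315.

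No motif searched in the promoters was present in all 4 genes with summits. In the 300 bases before the start, the CRE half-site was found in DUSP1, FOS, ATF3 and EGR1 (4 of 10 genes, 9.51% of 19962 promoters), and its full form in DUSP1 alone of the 10 (2.58% of promoters). In DUSP1 the full site lies at bases -125 to -118 from the start. The CArG box was found in EGR1 alone, at 2 places (1.40% of promoters), and the AP-1 site in none of the 10 (5.76%). This search did not reach farther upstream than these 300 bases, in FOS or any other gene. An absence therefore holds for these bases only. The GAS site was found in EGR1 alone (7.13% of promoters). The GC box GGGCGG was found in all but JUNB and EGR1 (8 of 10, 60.8% of promoters). The AT-rich letters TNTTT or TTTNT were found in all but ZFP36 (9 of 10), as in 82.2% of promoters. GC content there ran from 57.7% in IER3 to 76.0% in DUSP1, with a median of 62.0% over all promoters.

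Around the summits themselves, in windows reaching 150 bases to each side, the same letters were counted. The AT-rich letters were in 20 of 25 windows at immediate-early genes (80.0%) and in 382 of 423 at other gene summits (90.3%), and the GC box in 14 of 25 and 136 of 423 (32.2%). The GAS site was in 4 of 25 (16.0%) and 27 of 423 (6.38%), and the CArG box in 1 of 25 and 6 of 423 (1.42%). Neither the AP-1 site nor the CRE half-site was in any of the 25, and they were in 6.15% and 5.91% of the others. The windows of immediate-early genes had a median GC content of 65.4% (range 30.2 to 73.8%), against 52.8% at other gene summits. Windows of neighbouring summits and of different libraries overlap, and a match of letters is not a bound site.

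Of 65 other early response genes, 9 had a summit in any library, with 1 and 3 without AP and 3 and 9 with AP. Over all protein-coding genes the shares were 1.31% in any library, 0.175% and 0.16% without AP, and 0.321% and 1.13% with AP. CEBPD, a C/EBP factor, had summits in all 4 libraries (2, 2, 3 and 2) and recurred in both conditions. ID1, which blocks the binding of basic helix-loop-helix factors, had 0, 1, 2 and 2, and ZFP36L1, a relative of ZFP36, had 0, 0, 1 and 1, so that both recurred with AP and not without. The ZFP36L1 summits lay 168 bp past the start in coding sequence and 26 bp past it in the 5' UTR, the latter of rank 22 of 297. BTG1, an antiproliferative factor, had 1 in each replicate 2 list, at -351 bp from the start without AP and -53 bp with AP.

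The other 5, named after their values had been seen, were FOSL2, JUND, ID3, CEBPB and IER5, each with summits in plus AP replicate 2 alone. None of the 6 EGR and NR4A genes, none of the 4 KLF genes listed (KLF2, KLF4, KLF6 and KLF10) and none of the 15 feedback inhibitors such as the sprouty genes, ERRFI1 and 6 other DUSP genes had a summit, where 1.31% of all protein-coding genes did. Of 24 genes of the pathway itself, which comprised 7 ErbB ligands, 4 ErbB receptors and 13 genes from RAS to ERK and its ETS factors, 1 had a summit. It was EGFR, with 1 summit 904 bp past the start in intron 1 in plus AP replicate 2, of rank 260 of 297, and it too was named after its value had been seen.

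The 5 protein-coding genes outside these lists with summit counts nearest to those of JUNB, by the sum of absolute differences over the 4 libraries, were HOOK2 (difference 0), SPIDR (1), NFKBIA (2), SOD2 (2) and TXNIP (3). HOOK2 holds the same 10 summits as JUNB, and 6 of the SPIDR summits are also counted for its neighbour CEBPD. NFKBIA, the inhibitor of NF-kappaB, had 2, 3, 3 and 4 summits, SOD2, the mitochondrial superoxide dismutase, 2, 1, 2 and 3, and TXNIP, an inhibitor of thioredoxin, 2, 3, 3 and 5. The likeness rests on 4 small counts and was not tested.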

How the data were processed

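ChIP-seq of the GluGlu-tagged EGFR chimera was analysed in 4 libraries, 2 per condition, mapped to conditions by the labels and the names of the summit lists. Reads of 75 bp in pairs were mapped by the authors with Bowtie2 2.2.9 (GRCh38), and peaks of each library came from MACS2 2.2.7.1. By the study's methods, duplicates and reads with several places were removed. Of the replicate 1 summits, 44.1% without AP and 49.8% with AP had 90% or more of the surrounding 75-bp sequences repeated in the genome. In both replicate 2 lists 0% did. Whether the removal was alike in all lists was not tested. The study's methods name input chromatin as the control and its results name naive IgG, and the lists do not show which one the scores are relative to. The deposited score of a summit is a −log10 q-value, and all were above 1.301, which is a q-value of 0.05. Read numbers are not in the lists. By the study's methods peaks were called with default settings, and the number of summits per peak was not counted here.

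Genes and canonical transcripts came from GENCODE 44 and sequences from a GRCh38 reference. A summit was assigned to each gene whose limits, extended by 1000 bp, held it. Exact copies of 75-bp sequences were counted on both strands without alternate haplotypes. The exact permutation test planned for the share of gene summits is not used, since 2 against 2 libraries cannot reach 0.05 and the genes were selected with the summits known. Assignment was tested on planted positions. Python 3.11.15, numpy 2.4.6, pandas 2.3.3, scipy 1.17.1, numba 0.67.0, pysam 0.24.0 and matplotlib 3.10.9 were used.

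The members and lists were chosen with earlier results of these data known. Genes named were the 10 members, the listed early response and pathway genes with summits in 2 or more libraries, and the 5 genes most like the member with most summits. Genes named outside this rule are marked. Alternatives changed gene limits, minimum score, assignment, the definition of recurrence, list length, merging, denominators, replicates and the ranked list. The count of genes with more summits in both plus AP lists, with its alternatives, was added after seeing the data.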

Additional observations from a re-analysis of the deposited data

How the results depend on the processing

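With gene limits not extended, and with each summit given to the nearest protein-coding gene only, JUNB lost its minus AP replicate 2 summits, so that 1 gene in place of 2 recurred without AP, 1 in place of 2 had a summit in all 4 libraries, and 1 in place of 2 had a summit in minus AP replicate 2. With only summits within 1000 bp of the start, 1 gene, JUNB, had a summit in minus AP replicate 2. With summits of the replicates required within 200 bp, 1 gene, JUNB, recurred without AP. With the 43 highest-scoring gene summits of each list, 0 genes in place of 2 had more summits in both plus AP lists, a count added after seeing the data. The number of genes that recurred with AP was 2 with these equal lists and with the 200 bp rule, and 3 under the other 5 alternatives. The difference in share was -1.01 percentage points over all summits and -1.51 with summits within 500 bp merged. Without replicate 1 or 2, the difference in share was -2.72 and -0.316 percentage points, and recurrence, which needs both replicates, has no value. With the replicate number as a block the difference was again -1.52 percentage points, and no call rests on a test that a block could change. Best ranks were also taken among gene summits and among summits in fully unique sequence. Of these 24 ranks, 3 moved by more than 10 points, each among unique summits of replicate 1. JUNB moved from 31.3 to 15.6% of the list without AP and from 25.8 to 13.3% with AP. DUSP1 moved from 34.6 to 16.7% without AP. Depth is not in the lists and limits every statement on a missing summit.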
